A study of Homo sapiens with 8 samples.

Results

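Promoter peaks of PML::RARA at DNA damage repair genes were examined in a list of 57 genes of 7 repair functions. A gene had a promoter peak when its symbol stood beside a peak in the deposited list of PML::RARA binding sites. Of the 57 genes, 39 had 1 or more such peaks, and these genes held 41 of the 7169 gene-labelled peaks in a list of 15412 peaks. The cells were U937-PR9, a human monocytic line that carries a PML::RARA transgene under a zinc-inducible promoter. To the culture medium, 100 μM ZnSO4 was added for 5 h in induced cells, and water in its place in uninduced cells. Cut&Run, in which an antibody directs a nuclease to cut the DNA around a bound protein, was performed with an anti-PML-RARA and an anti-RARA antibody. There were 2 replicates of each of the 4 groups and 8 libraries in all, and the list analysed here was that of induced cells with the first of these antibodies. The lists of uninduced cells and of the anti-RARA antibody were not analysed here.

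PML::RARA is the fusion protein of acute promyelocytic leukaemia and joins the PML protein to a retinoic acid receptor, a DNA-binding nuclear receptor. Cells mend DNA through several routes. Sensor kinases and clamps detect the damage and halt the cell cycle, homologous recombination and end joining rejoin broken chromosomes, excision repair and mismatch repair replace damaged or wrong bases, and the Fanconi anaemia proteins act on crosslinked strands. Many of these genes are transcribed from promoters rich in CpG dinucleotides, and several share such a promoter with a neighbour that is transcribed in the opposite direction.

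Each peak had 1 height, in the units of the deposited list, and 1 width in bp. The height was the deposited score, read here as the largest signal within the peak. The list held no value per replicate, so no replicate error can be given and no test was made, and differences are described beside the spread over peaks. The depth of the libraries is unknown. Positions are on hg19, and start sites, exons and introns were taken from GENCODE release 44 on that build. The apex is the middle of the interval of largest signal. Distances given as upstream lie 5′ of the gene's start in its own direction of transcription.

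The share of repair genes with a labelled peak was higher than that of protein-coding genes at large. It was 68.4% (39 of 57), beside 30% of 20090 protein-coding genes (6025). The 57 genes were chosen with earlier results of these data known. The 20090 genes were not matched to them in expression or open chromatin, so a part played by these was not tested. With the symbol set aside, 46 of the 57 repair genes (80.7%) had a peak whose apex lay within 1 kb of one of their own start sites, beside 39.3% of all protein-coding genes (7903). The distance of 3 kb gave 48 of 57 (84.2%) beside 42.1%. Repair gene promoters also had a higher CpG ratio than the median promoter, but not a higher GC content. Within 500 bp of the start, their ratio of observed to expected CpG had a median of 0.787, beside 0.724 in all protein-coding genes and 0.795 in those with a labelled peak. Their median GC content was 59.7%, beside 61.2% in all protein-coding genes and 64.2% in those with a labelled peak. Among the protein-coding genes with a CpG ratio between the repair genes' quartiles, 41.1% had a labelled peak, and 19 of the 29 repair genes in that range did (65.5%).

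**Figure D1:**
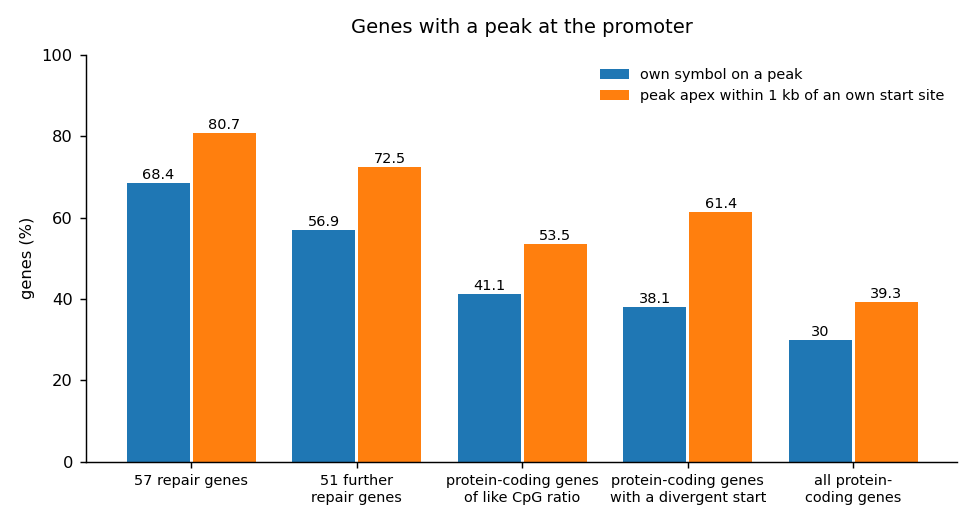
Percentage of genes (vertical axis, from 0) with their own symbol on a peak (blue) and with a peak apex within 1 kb of an own start site (orange), in 5 sets of genes. The 57 repair genes stand at 68.4% and 80.7%, and all protein-coding genes at 30% and 39.3%.

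A further 51 repair genes that are not among the 57 gave shares between these values. Of them, 29 (56.9%) had a labelled peak and 37 (72.5%) had an apex within 1 kb of an own start. Their labelled peaks had a median height of 29 and a median width of 1295 bp. The genes named from this list were chosen after their values were seen. RPA2, a subunit of the protein that coats single-stranded DNA, had a peak of height 56. BLM, a helicase of recombination intermediates, had one of height 50, and OGG1, the glycosylase of oxidised guanine, one of height 48. H2AX, the histone that is phosphorylated at breaks, had a peak of height 40 and 1996 bp. RPA1, TOPBP1, WRN and MGMT, which act in replication, checkpoint, helicase and alkylation repair, had no apex within 1 kb of an own start.

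In size, the peaks of the repair genes resembled the other gene-labelled peaks. Their median height was 25 (quartiles 21 and 31, range 16 to 86, 41 peaks), and that of the 7128 other gene-labelled peaks was 26 (quartiles 20 and 35, range 13 to 83). The difference of the medians was -0.06 on the log2 scale, while the SD of log2 height was 0.58 among the repair gene peaks and 0.50 among the others. The median width was 1089 bp (quartiles 693 and 1296) beside 1108 bp (quartiles 770 and 1541), a difference of -0.02 on the log2 scale with an SD of 0.68 and 0.81. Both differences were smaller than the spread over peaks.

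The share of large peaks was lower among the repair genes, by a few peaks. A height of 35 or more, the upper quartile of all gene-labelled peaks, was reached by 7 of the 41 peaks (17.1%) and by 25.5% of all labelled peaks. A width of 1539 bp or more was reached by 6 (14.6%) and by 25%. At the low end, 10 peaks (24.4%) had a height of 20 or less, beside 26%, and 12 (29.3%) had a width of 770 bp or less, beside 25.1%. Taller peaks were wider. Spearman's rho of height with width was 0.42 over the 41 peaks and 0.447 over the others, all from the same pair of libraries. The 8243 peaks without a gene symbol were narrower, with a median width of 634 bp and a median height of 23.

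**Figure D2:**
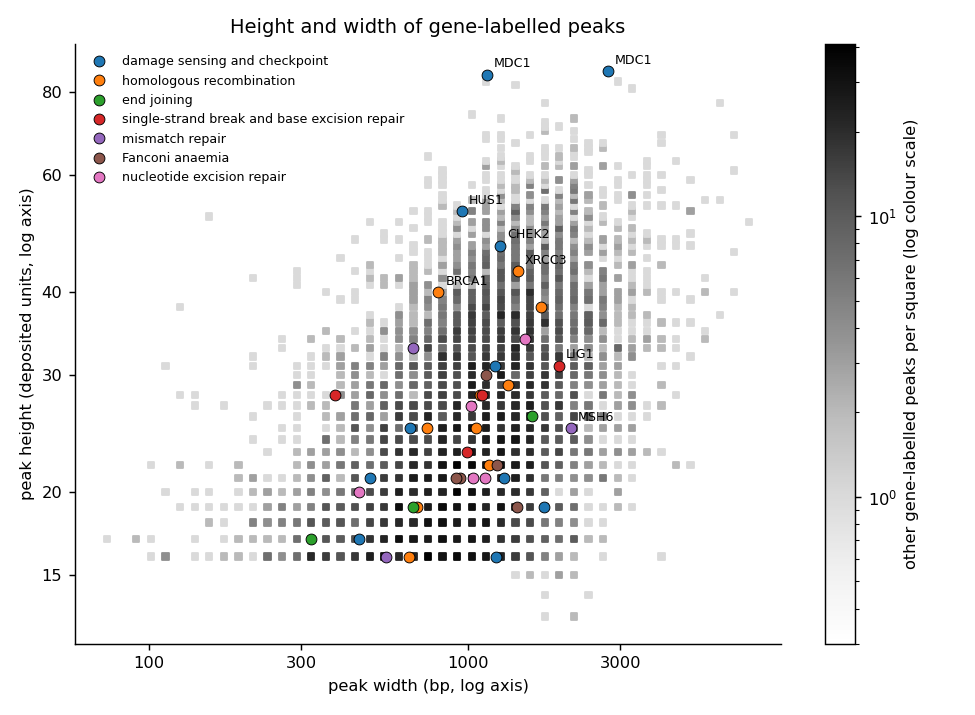
Height (vertical, deposited units, log axis) against width (horizontal, bp, log axis) of the 41 repair gene peaks, coloured by function, over the 7128 other gene-labelled peaks, counted in grey squares. The 2 MDC1 peaks, at heights of 85 and 86, lie above every other labelled peak, and the remaining points lie among the grey squares.

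Damage sensing and checkpoint genes held the 4 highest of the 41 peaks, while their median height of 25 equalled that of all 41. Of 12 genes, 9 had a labelled peak and 11 had an apex within 1 kb of an own start. MDC1, the scaffold that gathers repair proteins on phosphorylated H2AX, had the 2 highest of all 7169 gene-labelled peaks. Only 1 peak in the whole list, at 87 and without a gene symbol, was higher. The MDC1 peak of height 85 lay at chr6:30684689-30685832 (1144 bp), with its apex 124 bp upstream of the nearest MDC1 start. It also covered an annotated start of the neighbour TUBB, 154 bp upstream of the canonical MDC1 start. The peak of height 86 lay at chr6:30687246-30689982 and was with 2737 bp the widest of the repair genes. Its apex was 2751 bp upstream of the nearest MDC1 start and 154 bp from the canonical start of TUBB, a tubulin gene on the opposite strand. The sequence within 100 bp of this apex is shown because it is the highest labelled point of the list. It is written 5′ to 3′ in the direction of MDC1 transcription, with its match to CCAAT (the letters bound by NFY), on the reverse strand, in capitals.
MDC1 (chr6:30687875-30688075, minus strand): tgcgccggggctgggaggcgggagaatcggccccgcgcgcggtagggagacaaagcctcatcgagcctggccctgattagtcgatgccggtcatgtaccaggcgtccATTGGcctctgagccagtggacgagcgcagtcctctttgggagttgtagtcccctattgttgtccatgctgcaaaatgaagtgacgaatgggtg

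HUS1, a subunit of the clamp that loads at damaged DNA, followed with a height of 53 (chr7:48018567-48019521, 955 bp), with its apex 15 bp inside the first exon. CHEK2, a checkpoint kinase activated by ATM, had a height of 47 (chr22:29137460-29138713, 1254 bp). TP53BP1, which protects broken ends from resection, had 2 labelled peaks. The one at its canonical start had a height of 21 and was narrow (chr15:43785091-43785582, 492 bp), and the one at an alternative start, with its apex 17712 bp upstream of the canonical start, had a height of 31 (chr15:43802470-43803680, 1211 bp). The clamp subunit RAD1 and the kinase CHEK1 had heights of 25 and 21. RAD9A, the third clamp subunit, combined a low height of 19 with a wide peak (chr11:67158673-67160401, 1729 bp). The low end of the list held the kinase of stalled forks and its partner. ATR had a height of 17 (chr3:142297514-142297966, 453 bp) and ATRIP a height of 16 (chr3:48487653-48488876, 1224 bp). The 3 clamp genes thus differed in height, at 19, 25 and 53, and the effector kinases CHEK1 and CHEK2 at 21 and 47. RIF1, which acts with TP53BP1, had no peak near its start, the nearest apex being 131390 bp away.

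**Figure D3:**
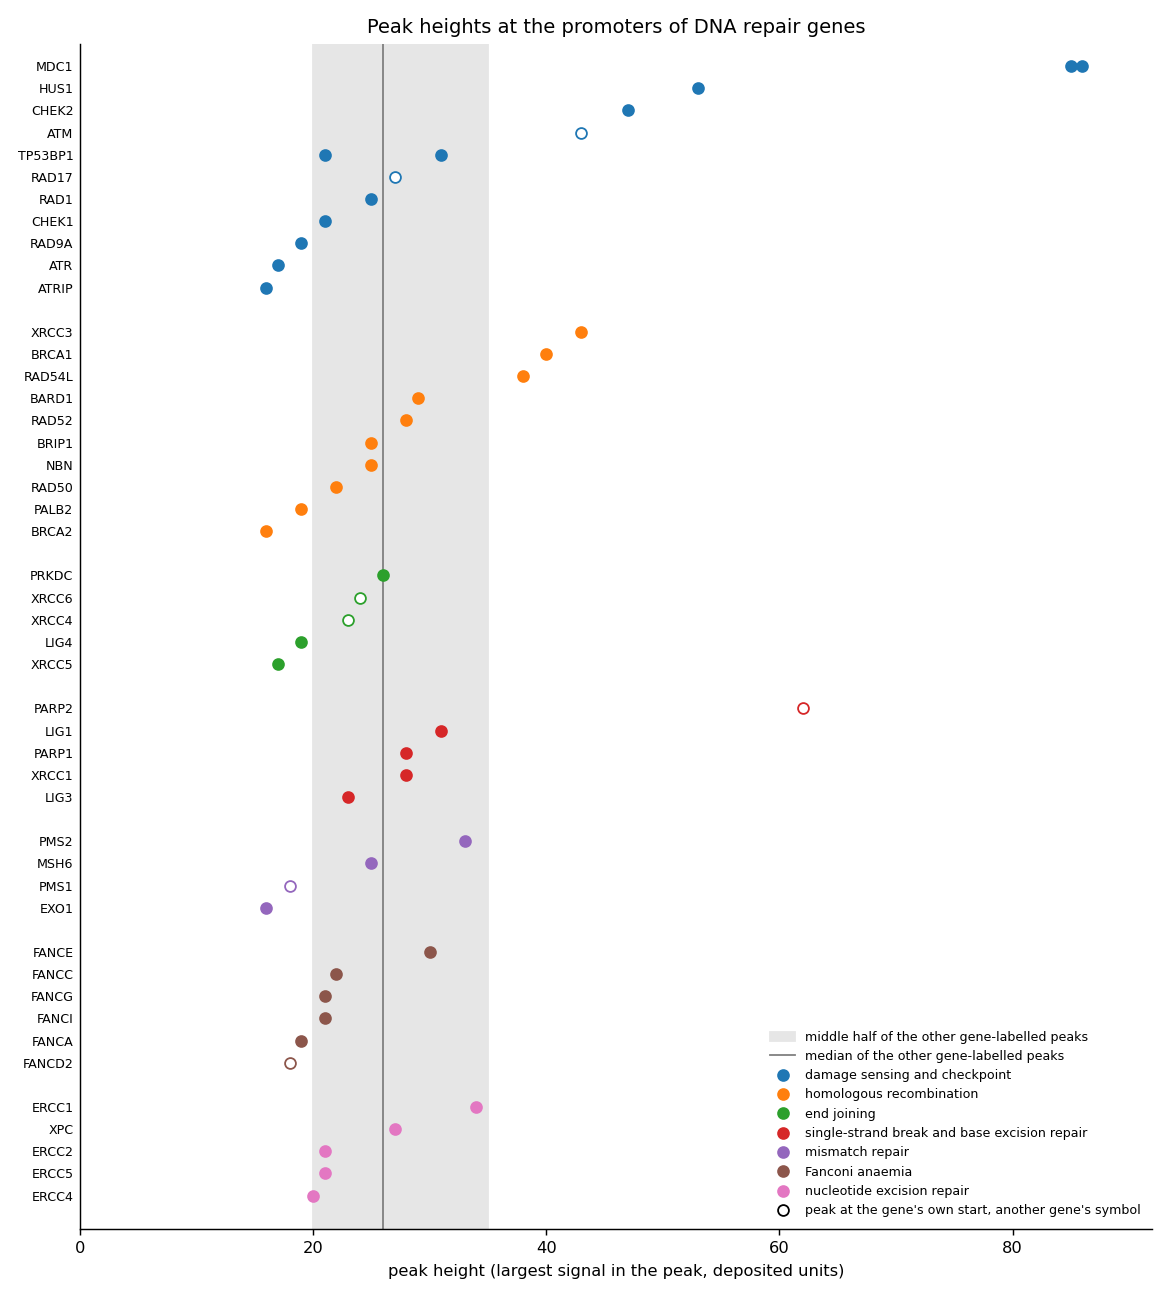
Heights (horizontal axis from 0, deposited units) of the peaks of each repair gene, grouped and coloured by function, with the quartile range of the other gene-labelled peaks (20 to 35) in grey and their median (26) as a line. Filled points carry the gene's own symbol and open points are peaks at the gene's own start that carry a neighbour's symbol. MDC1, HUS1, CHEK2, XRCC3, BRCA1 and RAD54L lie to the right of the grey band, as do the open points of PARP2 and ATM. MSH3 is not drawn.

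Among the 15 homologous recombination genes, 10 had a labelled peak and the remaining 5 had no apex within 3 kb of an own start. The highest were XRCC3, which acts in strand exchange, with a height of 43 (chr14:104181294-104182724, 1431 bp), and BRCA1, the ubiquitin ligase that promotes recombination, with 40 (chr17:41276961-41277765, 805 bp). RAD54L, a motor protein of strand exchange, had a height of 38 (chr1:46712575-46714266, 1692 bp). BARD1, the partner of BRCA1, had a height of 29 (chr2:215673725-215675060, 1336 bp). RAD52 had 28, the helicase BRIP1 25, NBN 25, RAD50 22 and PALB2, the bridge between BRCA1 and BRCA2, 19. BRCA2, a mediator of strand exchange, had with 16 one of the lowest peaks (chr13:32889447-32890100, 654 bp), with its apex in intron 1. In the complex that processes broken ends, RAD50 and NBN had peaks and the nuclease MRE11 had none, its nearest apex lying 32237 bp away. For the other 4 recombination genes without a labelled peak, the nearest apex lay 29487 bp (RAD51D), 140132 bp (RAD51B), 174592 bp (RAD51C) and 200106 bp (XRCC2) from an own start.

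Of the 5 single-strand break and base excision repair genes, 4 had a labelled peak. PARP1, which senses strand breaks, had a height of 28, as had the scaffold XRCC1 in a peak of 381 bp (chr19:44079632-44080012). LIG1, the replicative ligase, had a height of 31 and a wide peak (chr19:48672760-48674683, 1924 bp), and LIG3 a height of 23. Of the 5 mismatch repair genes, 3 had a labelled peak. PMS2 had a height of 33 (chr7:6048341-6049012, 672 bp). MSH6, of the complex that recognises mispaired bases, had a height of 25 in the widest peak after MDC1 (chr2:48009464-48011559, 2096 bp). The nuclease EXO1 had a height of 16 (chr1:242011074-242011624, 551 bp).

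The Fanconi anaemia and nucleotide excision repair genes had no peak with their own symbol above a height of 34. Of 9 Fanconi anaemia genes, 5 had a labelled peak, with heights from 19 to 30 (median 21). FANCE stood at 30, FANCC at 22, FANCG and FANCI at 21 and FANCA at 19, the latter in a peak of 1423 bp (chr16:89882100-89883522). All 5 are subunits of the core complex or, in the case of FANCI, of its ubiquitinated target. FANCF and FANCL, also of the core complex, had no apex within 3 kb of an own start. Of 6 nucleotide excision repair genes, 5 had a labelled peak, with heights from 20 to 34 (median 21). ERCC1 had a height of 34 (chr19:45926519-45928023, 1505 bp) and its nuclease partner ERCC4 a height of 20 in a peak of 453 bp (chr16:14013612-14014064). The damage sensor XPC had 27, and the helicase ERCC2 and the nuclease ERCC5 had 21. ERCC3, the other helicase of the same complex as ERCC2, had none, with the nearest apex 93277 bp away.

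Many repair genes shared their promoter with a gene of the opposite strand. An annotated start of another gene, transcribed away from the repair gene, lay within 1 kb upstream of the canonical start in 28 of the 57 genes (49.1%), beside 24.3% of all protein-coding genes and 30.9% of those with a labelled peak. With protein-coding partners only, the counts were 21 of 57 (36.8%) beside 12.5%. The distance between both starts ranged from 24 to 611 bp. Of the 28 genes, 23 had an apex within 1 kb of an own start, and each of these 23 peaks covered both starts. In 15 of them the apex lay between the starts. Of the 23 apices, 15 lay nearer to the partner's start and 8 nearer to the canonical start of the repair gene. Among the 28 genes with a divergent start, 16 (57.1%) carried their own symbol, and among the 29 genes without one, 23 (79.3%) did. With the symbol set aside the shares were 82.1% and 79.3%. In all protein-coding genes with a divergent start, 38.1% had their own symbol on a peak and 61.4% had an apex within 1 kb, beside 27.4% and 32.3% of those without one. Own symbols were thus less frequent with a divergent start among the 57 repair genes and more frequent among all protein-coding genes, a difference that was not tested. The split rests on the annotation used and on canonical starts of the repair genes. PARP2 counted as without a divergent start, but RPPH1, the symbol on its peak, is not on chromosome 14 in that annotation. LIG4 did too, with its peak apex 2918 bp from its canonical start and 62 bp from that of ABHD13.

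**Figure D4:**
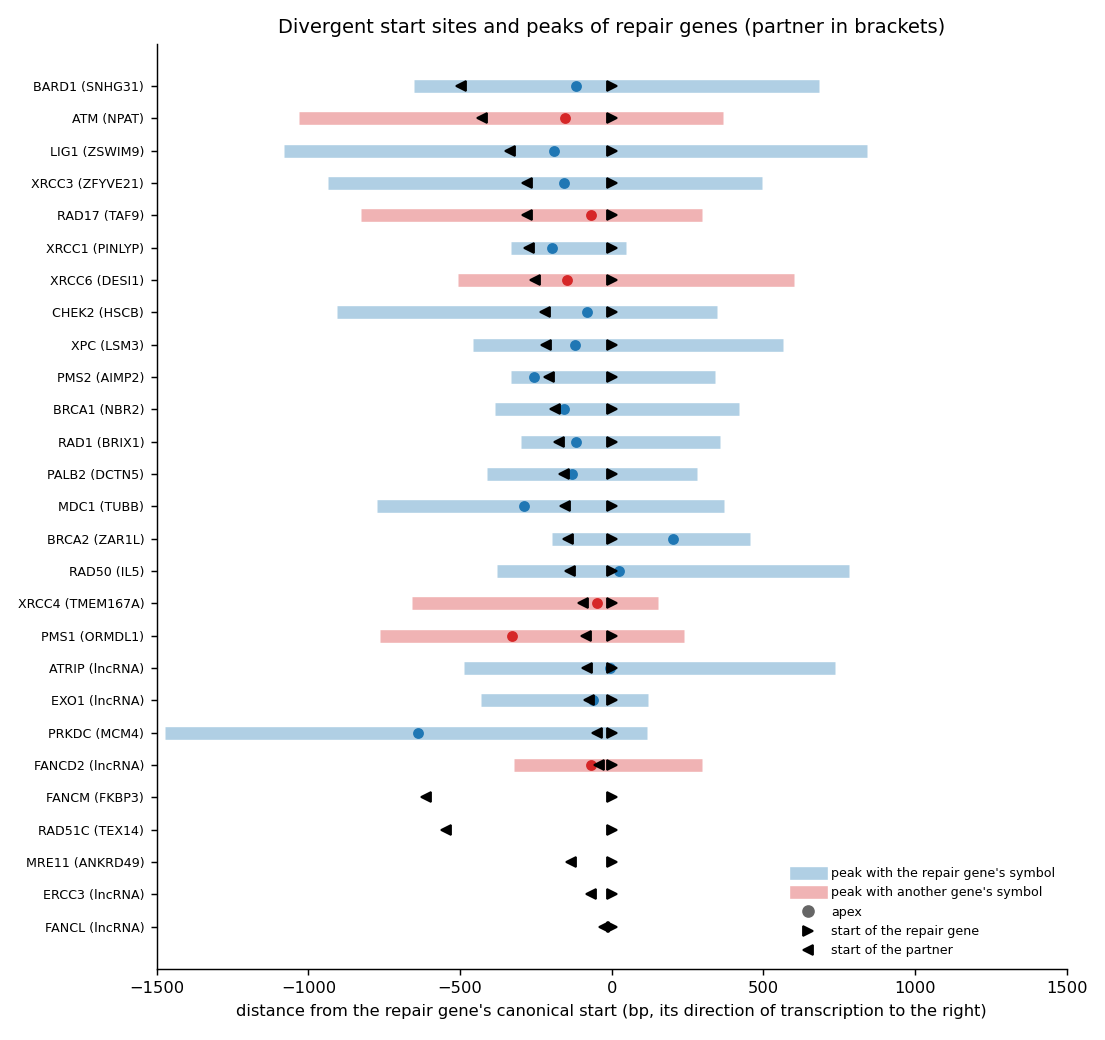
Positions, in bp from the canonical start of 27 of the 28 repair genes with a divergent start (right-pointing triangle at 0), of the partner's start (left-pointing triangle), the peak (bar) and its apex (dot). Blue bars carry the repair gene's symbol and red bars a neighbour's, and the 5 genes in the last lines had no apex within 1 kb. All 22 bars reach over both triangles. MSH3 is not drawn.

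Sequences between both starts are shown for 6 of these pairs, because the promoter that the peak covers belongs to both genes and because 2 of the 6 pairs had no peak. Each is the longest stretch without an annotated exon, at most 300 bases next to the repair gene, written 5′ to 3′ in the repair gene's direction on hg19. Capitals mark matches on either strand to GGAAGT (ETS), GGGCGG (SP/KLF), CCAAT (NFY) and TTCCCGCC or TTGGCGGG (E2F).
ATM/NPAT (chr11:108093471-108093770, plus strand): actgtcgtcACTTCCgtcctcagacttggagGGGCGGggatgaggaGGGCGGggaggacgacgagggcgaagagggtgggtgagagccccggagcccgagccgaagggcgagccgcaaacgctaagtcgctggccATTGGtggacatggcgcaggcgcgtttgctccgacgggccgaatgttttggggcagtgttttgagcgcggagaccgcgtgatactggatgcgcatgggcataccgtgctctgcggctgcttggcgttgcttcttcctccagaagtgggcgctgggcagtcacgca
BRCA1/NBR2 (chr17:41277501-41277567, minus strand): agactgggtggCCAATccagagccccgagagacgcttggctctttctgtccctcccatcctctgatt
XRCC3/ZFYVE21 (chr14:104181842-104182066, minus strand): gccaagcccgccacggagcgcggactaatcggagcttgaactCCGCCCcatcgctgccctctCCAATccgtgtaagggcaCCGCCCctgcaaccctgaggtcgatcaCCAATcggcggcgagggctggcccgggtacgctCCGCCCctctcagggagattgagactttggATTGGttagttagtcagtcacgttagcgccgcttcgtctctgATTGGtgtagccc
PMS2/AIMP2 (chr7:6048762-6048885, minus strand): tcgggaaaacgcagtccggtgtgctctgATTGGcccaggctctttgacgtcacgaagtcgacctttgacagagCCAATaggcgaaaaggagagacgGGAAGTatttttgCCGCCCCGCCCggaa
MRE11/ANKRD49 (chr11:94227052-94227144, minus strand): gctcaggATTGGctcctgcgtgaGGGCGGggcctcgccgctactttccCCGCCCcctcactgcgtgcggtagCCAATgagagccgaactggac
RAD51C/TEX14 (chr17:56769634-56769933, plus strand): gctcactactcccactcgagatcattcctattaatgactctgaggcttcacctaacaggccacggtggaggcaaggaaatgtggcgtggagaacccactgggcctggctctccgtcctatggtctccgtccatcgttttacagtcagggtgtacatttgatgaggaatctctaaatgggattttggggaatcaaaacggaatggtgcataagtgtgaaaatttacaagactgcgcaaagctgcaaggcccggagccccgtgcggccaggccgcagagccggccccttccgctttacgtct

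The stretch of XRCC3 and ZFYVE21 held 4 matches to the NFY letters and 3 to the SP/KLF letters, and its peak had a height of 43. That of PMS2 and AIMP2 held 2 of each and 1 ETS match, with a height of 33. The stretch of BRCA1 and the non-coding NBR2 held 1 NFY match. The stretch of MRE11 and ANKRD49 held 2 NFY and 2 SP/KLF matches without a peak, and the 300 bases upstream of RAD51C held no match to these letters. Matches were thus found in pairs with and without a peak.

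Of the 18 repair genes without their own symbol on a peak, 8 had a peak at an own start that carried another gene's symbol. Genes with an apex within 1 kb lacked their own symbol in 17.4% of the repair genes (8 of 46) and in 26% of all protein-coding genes. ATM, the kinase that responds to double-strand breaks, shared its peak with NPAT, a regulator of histone genes. This peak had a height of 43 and covered 1398 bp (chr11:108092763-108094160), with its apex 154 bp upstream of the canonical ATM start and 275 bp from that of NPAT. PARP2, a relative of PARP1, had a peak of height 62 (chr14:20811149-20812275, 1127 bp), higher than 99.0% of all labelled peaks, which carried the symbol RPPH1, the RNA of ribonuclease P. Its apex lay 264 bp upstream of the canonical PARP2 start. RAD17, the loader of the clamp, had one of 27 under TAF9 (chr5:68664817-68665943, 1127 bp). The end joining genes XRCC6, which encodes Ku70, and XRCC4, the partner of LIG4, had heights of 24 under DESI1 (chr22:42016791-42017899, 1109 bp) and 23 under TMEM167A (chr5:82372708-82373518, 811 bp). PMS1 had 18 under ORMDL1 (chr2:190648413-190649413, 1001 bp). FANCD2, the ubiquitinated partner of FANCI, had 18 under CIDECP1, a pseudogene (chr3:10067800-10068419, 620 bp). The remaining gene, MSH3, is counted but not described. The 8 peaks ranged from 18 to 62 in height with a median of 25.5, beside 25 for the 41 peaks with the repair genes' own symbols. FANCM lay between these genes and those without a peak, with an apex 1468 bp upstream of its start in a peak of height 17 under the symbol FKBP3 (chr14:45603319-45603952, 634 bp).

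With these peaks, each of the 5 end joining genes had a peak in its promoter or under its own symbol. The 3 with their own symbol were PRKDC, the catalytic subunit of the DNA-dependent kinase, at 26 (chr8:48872580-48874170, 1591 bp), LIG4 at 19 and XRCC5, which encodes Ku80, at 17. The XRCC5 peak was the narrowest of the 41 (chr2:216979475-216979795, 321 bp), and its apex lay in intron 2, 5484 bp from the canonical start and 1740 bp from the nearest annotated one. It was the only labelled repair gene without an apex within 1 kb of an own start. Likewise all 5 mismatch repair genes and all 5 single-strand break and base excision repair genes had an apex within 1 kb of an own start. The share with such an apex was 39.3% in all protein-coding genes and 72.5% in the 51 further repair genes. Of those 51, 14 had none, POLB and NEIL1 among them, so these counts hold for the listed genes only. Of the 57 genes, the 9 without an apex within 3 kb were RIF1, MRE11, RAD51B, RAD51C, RAD51D, XRCC2, FANCF, FANCL and ERCC3.

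The symbol on a peak did not always name the gene with the nearest canonical start. In 10 of the 41 repair gene peaks (24.4%) the canonical start nearest to the apex belonged to another protein-coding gene, as in 10.5% of 6570 other labelled peaks of protein-coding genes. These were the upstream MDC1 peak (TUBB) and the upstream TP53BP1 peak (MAP1A, at 6740 bp), and those of LIG1 (ZSWIM9), LIG4 (ABHD13), PALB2 (DCTN5), PMS2 (AIMP2), PRKDC (MCM4), RAD1 (BRIX1), XPC (LSM3) and XRCC1 (PINLYP). With all annotated starts of protein-coding genes, a comparison chosen after seeing the data, another gene's start was nearest in 9 of 41 peaks (22%) beside 9.06%. The peaks of LIG1 and RAD1 then lay nearest to their own gene, and that of LIG3 nearest to another. MCM4, a subunit of the replicative helicase, had its canonical start 166 bp from the apex of the PRKDC peak, and the canonical PRKDC start lay 639 bp from it.

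Within the promoter, the apex of the repair gene peaks mostly lay close to an annotated own start. It lay upstream of the nearest own start in 32 of 41 peaks (78%), beside 75.5% of 6570 other labelled peaks of protein-coding genes, at a median of 86 bp upstream (67 bp in the others). In 37 peaks (90.2%) it was within 200 bp of an own start, beside 73.2%. These shares used the nearest of all annotated starts of each gene, and shares by canonical start are not given. Some apices lay farther from the canonical start, as at CHEK1 (1112 bp, beside 41 bp from the nearest start), FANCC (684 beside 92 bp) and NBN (525 beside 100 bp). Relative to the canonical transcript, 32 apices were upstream, 6 lay in an intron and 3 lay in a 5′ untranslated exon, those of FANCG, HUS1 and RAD50.

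Most motif letters were present near the apex in like shares of repair gene peaks and other labelled peaks. The largest relative difference among motifs found in more than 5 repair gene peaks was that of the E2F letters. Motifs were counted as exact matches on either strand within 200 bp of the apex. GGGCGG, bound by SP and KLF factors, was present in 35 of 41 peaks (85.4%) beside 76.1% of the other labelled peaks, and GGAAGT, the ETS core, in 16 (39%) beside 36.7%. Within 100 bp of the apex these shares were 61% beside 61.9% and 19.5% beside 25.5%, so that neither was higher in the repair gene peaks. CCAAT, bound by NFY, was present in 24 (58.5%) beside 44.1%. The E2F letters TTCCCGCC or TTGGCGGG, bound by factors that activate genes for DNA replication, were present in 10 (24.4%) beside 9.58%. Within 100 bp of the apex they were present in 5 (12.2%) beside 5.25%, and within 200 bp of the middle of the peak in 11 (26.8%) beside 8.87%. CCAAT was present in 19 (46.3%) beside 33.4% within 100 bp of the apex, and in 39% beside 35.9% around the middle. CACGTG, the E-box, was present in 4 (9.76%) beside 12.6%. GCATGCGC (NRF1), TGACGTCA (CREB) and AAGATGGCG (YY1) were present in 2 peaks each (4.88%), beside 6.19%, 3.11% and 4.11%. The letters of E2F can overlap those of SP/KLF.

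**Figure D5:**
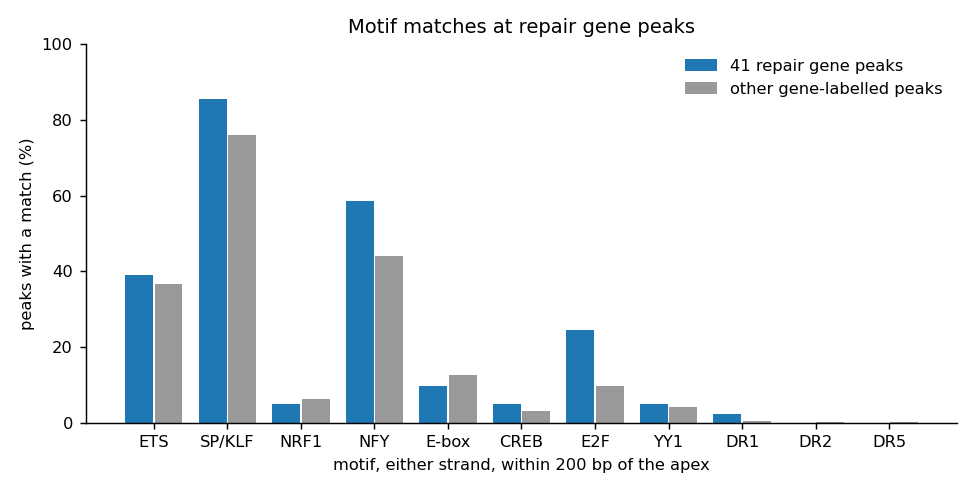
Percentage of peaks (vertical axis, from 0) with a match to each motif within 200 bp of the apex, in the 41 repair gene peaks (blue) and the 7128 other gene-labelled peaks (grey). The E2F bars stand at 24.4% and 9.58%, and the bars of the direct repeats DR1, DR2 and DR5 are at or close to 0.

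The 10 peaks with E2F letters were those of BRCA2, BRIP1, ERCC5, LIG1, MSH6, RAD52, RAD54L, XPC, XRCC3 and PRKDC, genes of 5 of the 7 functions. The letters in 7 of these promoters are shown with their surroundings on hg19, in capitals and 5′ to 3′ on the strand given, since this motif differed most in relative frequency among the frequent ones.
RAD54L (chr1:46713302-46713327, plus strand): gcagcactaTTCCCGCCtcttccttg
ERCC5 (chr13:103498341-103498366, minus strand): gaatggccgTTGGCGGGgaggggcag
RAD52 (chr12:1059079-1059104, plus strand): gcctcctacTTCCCGCCagcttccct
BRIP1 (chr17:59940932-59940957, minus strand): ttcctggccTTGGCGGGtgattggtc
MSH6 (chr2:48010279-48010304, plus strand): cccccagatTTCCCGCCagcaggagc
XRCC3 (chr14:104181775-104181800, plus strand): gcactcctcTTCCCGCCgtcctgctc
XPC (chr3:14220325-14220350, minus strand): ctgcgccctTTCCCGCCtctcgcgag

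The sites of RAD54L and ERCC5 lay 7 and 4 bp from the apex, whereas those of XRCC3 and XPC lay 157 and 115 bp from it. RAD54L and BRIP1 held 2 matches each and LIG1 held 3. The heights of these 10 peaks ranged from BRCA2 at 16 to XRCC3 at 43.

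Direct repeats of the retinoic acid receptor letters AGGTCA and their close variants were rare. A repeat spaced by 1 base (DR1) was present in 1 of the 41 peaks (2.44%), that of HUS1, beside 0.351% of the other labelled peaks. Repeats spaced by 2 bases (DR2) or 5 bases (DR5) were found in 0 of 41, beside 0.196% and 0.0982%, and a count of 0 says only that these letters are not in these windows. The HUS1 site is shown because HUS1 had the highest peak with its own symbol after MDC1. It lay 105 bp upstream of the HUS1 start and 120 bp from the apex, and capitals mark both copies and the base between them.
HUS1 (chr7:48019304-48019330, plus strand): ggaggtgGGGTCACGGGTCAaggatca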

How the data were processed

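Cut&Run was performed on U937-PR9 cells, and per the labels and methods the authors used Trimmomatic for trimming, Bowtie2 for alignment to hg19 and Samtools for removing duplicates, called peaks with SEACR against a control, and kept peaks that reproduced in both replicates (IDR below 0.05). Versions are not given in the sources used here. The authors deposited for each peak its total signal, its largest signal as a score (here the height), its width, and the symbol of a gene whose promoter held the apex. The promoter size, any scaling of the signal and whether or how replicates were joined are not given in the sources used here. The depth of the libraries is unknown. In 34 peaks without an apex end the apex start was used. Of 6546 symbols, 6381 occur in GENCODE release 44, and all 57 repair genes do.

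The members and lists were chosen with earlier results of these data known. Counts, medians and distances were computed in Python 3.11.15 with pandas 2.3.3, numpy 2.4.6, scipy 1.17.1, pysam 0.24.0 and matplotlib 3.10.9. The code for the differences of medians was checked on simulated data, which does not assess the differences themselves. No statistical test was applied to the peaks, since the list holds 1 value per peak. Full positions were given for the 10 highest or widest and 5 lowest or narrowest repair gene peaks, for genes with several peaks, and for genes whose own-start peak bears another symbol. CpG ratios used 500 bp on either side of the canonical start. Alternatives covered the definition of a promoter peak, the summary, the measure of signal and the merging of neighbours under 1 kb apart. They also covered matching in 10 classes of width or height, the background genes and the motif window. The peak of MSH3 is not reported here, though it enters the counts.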

Additional observations from a re-analysis of the deposited data

How the results depend on the processing

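No paired analysis was possible because both replicates are joined in 1 value per peak, which also kept either replicate from being left out. The difference in height between repair gene peaks and other labelled peaks ranged from -0.13 to 0.01 (log2) over 10 alternatives, and that in width from -0.19 to -0.03 over 8. Those for height included total signal (-0.08) and total signal per base (-0.01) in its place. The value of 0.01 was a mean difference within 10 classes of width. All these alternatives lay within -0.31 to 0.11 for height and -0.28 to 0.14 for width. These are 95% order-statistic intervals for the median of the repair gene peaks, with the median of the other peaks held fixed. They treat peaks as independent and hold no replicate error. Leaving out the MDC1 peaks, one of these alternatives and chosen after seeing the data, gave -0.06 for height and -0.07 for width. Repair genes with a labelled peak numbered 21 (36.8%, beside 17.5% of all protein-coding genes) with peaks at or above the median height of the list, 27 (47.4% beside 22.4%) with peaks at or above its median width, and 46 (80.7% beside 38.3%) where the peak had to cover an own start. The background share of 30% became 41.1% among genes with a CpG ratio like that of the repair genes and 38.1% among genes with a divergent start. The share of repair genes with a divergent start was 45.6% (beside 21.6% of all protein-coding genes) within 500 bp, and 56.1% (beside 29.1%) with starts on either side of the gene's own, also chosen after seeing the data. Within 100 bp of the apex, where fewer bases were searched, ETS stood at 19.5% (beside 25.5% of the other labelled peaks) and SP/KLF at 61% (61.9%). In that window NFY stood at 46.3% (33.4%), E2F at 12.2% (5.25%), YY1 at 0 (2.06%) and DR1 at 0 (0.182%). Around the middle of the peak, NFY stood at 39% (35.9%) and DR1 at 0 (0.519%).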

Other observations

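Within the canonical transcripts, further peaks with another symbol or none lay in 4 repair genes with their apex more than 1 kb from the canonical start. In MSH6, a peak of height 23 and 446 bp (chr2:48025708-48026153) had its apex in coding exon 4, 15694 bp from the canonical start. In XRCC1, a peak of height 32 lay in intron 2 (chr19:44066795-44067375, 581 bp), which was higher than the peak of 28 at its promoter. In ERCC1, a peak of height 29 lay in intron 4 (chr19:45922095-45923035, 941 bp). In ATRIP, a peak of height 19 had its apex in the 3′ untranslated exon 13 and carried the symbol TREX1, a neighbouring exonuclease gene (chr3:48506853-48508559, 1707 bp). The 3 others carried no gene symbol.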
